A study of Mus musculus with 3 samples.

Results

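The 9 genes described here make, interconvert, break down and control the polyamines: Odc1, Amd1, Srm and Sms for synthesis, Oaz1, Oaz2 and Azin1 for control, and Sat1 and Smox for breakdown. They were chosen by name out of the 55536 genes of the deposited tables, and they have 67 of the 141767 annotated transcripts. The choice was made with levels and transcript shares of these same data known, so both are given as descriptions, with no test. RNA was taken from the chromatin fraction of mouse macrophages grown from bone marrow (primary cells, strain C57BL/6J) that had been treated with lipid A (the membrane anchor of bacterial endotoxin) at 100 ng/ml for 20 min. Ribosomal RNA was depleted before sequencing. All 3 libraries belong to this 1 group, and no untreated sample was analysed here, so no value below is a response to lipid A. Starting RNA was 1000 ng in replicate 1, 250 ng in replicate 2 and 500 ng in replicate 3. Sex and age were not collected, per the labels. The labels number the libraries as biological replicates and give them separate biosamples, but under 1 donor entry. Whether they came from separate animals is not stated. The p-values below thus measure only the spread between these samples, which may be technical.

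Polyamines (putrescine, spermidine and spermine) are small positively charged molecules that bind RNA and DNA and are needed for translation and growth. Ornithine decarboxylase, the product of Odc1, starts their synthesis, and spermidine/spermine acetyltransferase, the product of Sat1, tags them for oxidation or export. Both steps are controlled after transcription: antizyme is translated only when the ribosome changes frame, and Sat1 has a known spliced form with an extra exon that carries a stop codon. Macrophages are known to change arginine use, and with it the supply of ornithine, on activation. RNA held on chromatin contains transcripts that are unfinished or not yet spliced, so annotated transcripts that keep an intron can receive reads from both unspliced RNA and finished intron-retaining RNA. These sources cannot be told apart in tables of counts per transcript.

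The sequences on which the Sat1 results turn are the ways in which its exon 3 continues. Sat1 lies on the minus strand of chromosome X (GRCm38, 155213132 to 155216449), and all 3 sequences below begin with the same 31 bases at the end of exon 3, in the coding part. They are shown 5′ to 3′ in the reading frame, and capitals mark the first stop codon.
Sat1-201, exon 3 joined to exon 4: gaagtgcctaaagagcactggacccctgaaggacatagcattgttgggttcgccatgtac
Sat1-207, exon 3 joined to the extra exon: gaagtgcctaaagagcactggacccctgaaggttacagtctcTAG
Sat1-206, exon 3 read into intron 3: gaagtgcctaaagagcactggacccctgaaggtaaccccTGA
The protein-coding form has 171 codons before its stop. The extra exon is 110 bases long (chromosome X, 155215121 to 155215230) and lies inside intron 3. It adds 11 coding bases and then a stop codon at 155215217 to 155215219, after 71 codons. The form read into the intron meets its stop after 70 codons.

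The antizyme genes carry their own stop signal inside the coding part, the site at which the ribosome must change frame. It is shown for Oaz1 (chromosome 10, plus strand, 80828265 to 80828324) and Oaz2 (chromosome 9, plus strand, 65686242 to 65686301), with the stop codon in capitals.
Oaz1, from Oaz1-206: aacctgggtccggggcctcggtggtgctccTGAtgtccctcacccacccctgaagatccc
Oaz2, from Oaz2-205: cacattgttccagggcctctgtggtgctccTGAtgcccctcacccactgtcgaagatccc
Of the 60 bases, 49 were identical between the 2 genes, among them an unbroken run of 15 bases around the stop codon. Several annotated coding transcripts model the frame change by leaving out genome bases at this stop. Oaz1-202, Oaz1-203 and Oaz1-207 leave out 1 base (80828295), and Oaz1-201 leaves out 4 (80828292 to 80828295). Of the Oaz2 transcripts, Oaz2-204 and Oaz2-206 leave out 1 base (65686272) and Oaz2-201 leaves out 4. The retained-intron transcripts Oaz1-206 and Oaz2-205 hold every base.

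Expected counts over all genes summed to 16141381 in replicate 1, 16196661 in replicate 2 and 12398651 in replicate 3. A gene with no count could still have up to 3, which is 0.186, 0.185 and 0.242 CPM (counts scaled by library size), a limit for counting error only. TPM is a level scaled for transcript length and for the library total, and that total is dominated by small RNAs: snoRNA genes held 55.7, 46.4 and 40.4% of TPM and protein-coding genes 15.8, 18.1 and 24.7% in replicates 1, 2 and 3. All 8 macrophage markers reached 1 TPM in every library, with a sum of 494.6 to 688.7 TPM. Of 34 markers of 8 other kinds of blood, stromal and vessel cells, 1 did (the endothelial receptor gene Kdr, at 1.5 to 3.04 TPM), and their median was 0.02 TPM. In a second set of transcript tables, quantified from reads with no alignment step on record and called the kallisto tables here, 6 of the 34 did. Their part in the levels below was not tested. In bulk RNA, fewer cells of a type and less RNA per cell cannot be told apart.

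Sat1 stood far above the other genes of the pathway, and 8 of the 9 genes were at or above 1 TPM in every library, against a background of 40.6% of the 22028 protein-coding genes. Sat1 had 508 TPM in replicate 1, 589.5 in replicate 2 and 779.2 in replicate 3, or 626 ± 139 TPM (SD, n = 3). It ranked 7 among all protein-coding genes by mean TPM, a level summed over all transcripts of a gene. Transcripts with bases of intron 3 held 86.3% ± 2.26 of the Sat1 level (SD, n = 3). Odc1 was next, at 101.5, 194.5 and 198.2 TPM in replicates 1, 2 and 3, or 165 ± 54.8 TPM (SD, n = 3), rank 135. Every library of Sat1 lay above every library of Odc1, and every library of Odc1 above every library of the other 7 genes. Srm, at 0.43 ± 0.202 TPM (SD, n = 3), lay below every library of the other 8.

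**Figure D1:**
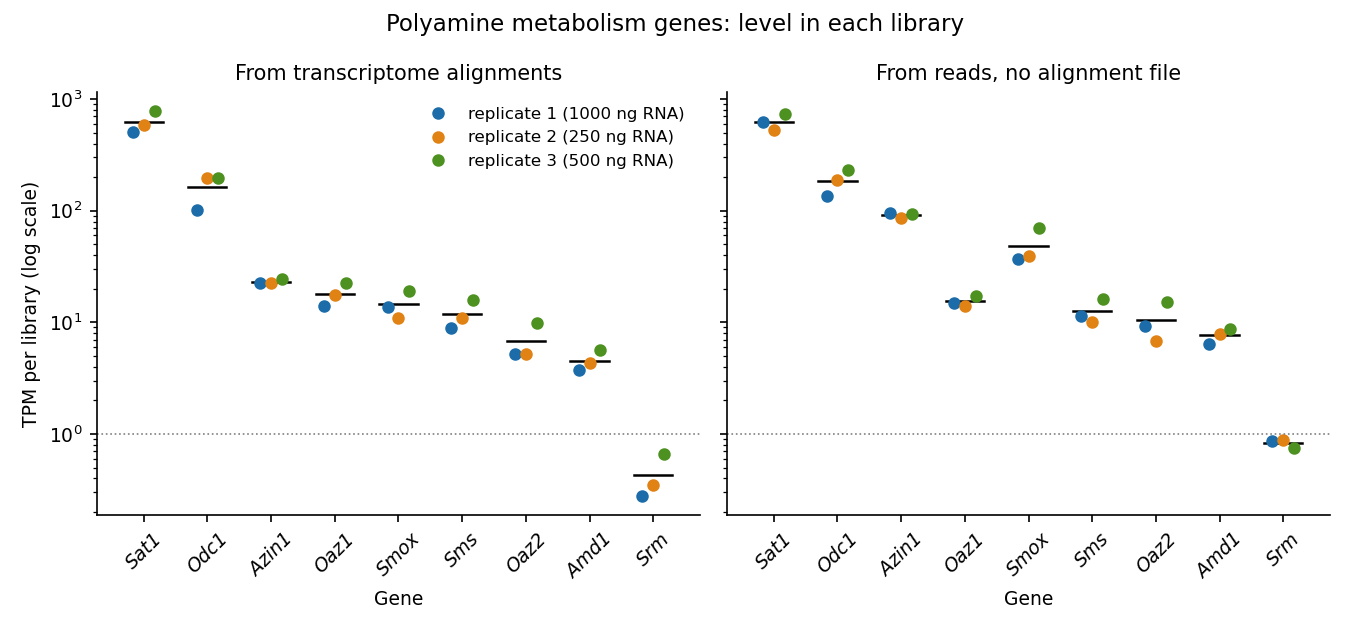
TPM of each gene in each library on a log axis, from the gene tables (left) and from the kallisto tables (right); points are libraries, coloured by replicate, bars are means of 3, and the dotted line is 1 TPM. Sat1 and Odc1 sit above all others on both sides, and Srm sits below 1 TPM. By their means, Azin1, Smox, Oaz2, Amd1 and Srm sit clearly higher on the right, and Odc1 and Sms slightly higher. The rise is largest for Azin1 and Smox, at means of 91.6 and 48.7 TPM against 23.2 and 14.6 on the left.

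In the synthesis branch, levels ran from Odc1, the first enzyme, down to Srm, the spermidine synthase. Amd1, which makes the aminopropyl donor for spermidine and spermine, had 3.72, 4.29 and 5.63 TPM in replicates 1, 2 and 3, or 4.55 ± 0.981 TPM, and 7.69 ± 1.16 TPM in the kallisto tables (SD, n = 3 for each). The libraries of Odc1 and Amd1 did not overlap, and the ratio of Odc1 to Amd1 was 35.9 ± 9.04 in TPM, 23.8 ± 2.65 in the kallisto tables and 10.6 ± 2.99 in CPM (SD, n = 3 for each). With counts divided by the merged length of all annotated exons it was 11.05 ± 3.11 (SD, n = 3). Sms, which turns spermidine into spermine, had 8.97, 10.95 and 15.97 TPM, or 12.0 ± 3.61 TPM (SD, n = 3). Srm was listed with 7, 8 and 10 expected counts, or 0.28, 0.35 and 0.66 TPM. Its posterior mean was 0.55, 0.8 and 1.56 TPM, above 1 TPM in replicate 3, and its mean in the kallisto tables was 0.834 ± 0.0753 TPM (SD, n = 3). The counts lie above the limit of 3 that a count of 0 allows, and the deposited credibility intervals were wide, at 0.173 to 1.01 TPM in replicate 1 and 0.498 to 3.00 TPM in replicate 3. The ratio of Sms to Srm was 29.2 ± 4.33 (SD, n = 3) in TPM and 15.4 ± 5.48 (SD, n = 3) in the kallisto tables. Sms and Srm, the final pair of synthases, differed more than 10-fold in every library on both scales.

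Srm lies on chromosome 4 (GRCm38, 148591503 to 148594993, plus strand) and Sms on chromosome X (157443855 to 157492287, minus strand). Odc1 lies on chromosome 12 (17544794 to 17551505, plus strand) and Amd1 on chromosome 10 (40287458 to 40302186, minus strand). A snoRNA gene, Gm22748, lies inside Odc1 on that strand and had 4, 1 and 2 counts, against 1933, 2620 and 1745 for Odc1. Amd1 has copies that could share its reads. Amd2 had 3.47, 3.87 and 6.12 counts and Amd-ps3 had 3.65, 0 and 6.1, against 243, 189 and 174 for Amd1, and 4 further Amd pseudogenes were listed at 0. The pseudogene Sms-ps had 8.73, 24.2 and 5.47 counts, against 463, 408 and 390 for Sms.

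The control genes Azin1, Oaz1 and Oaz2 took positions 3, 4 and 7 of the 9 by mean TPM. Oaz1, the main antizyme, which binds ornithine decarboxylase and delivers it to the proteasome, had 14.03, 17.47 and 22.71 TPM in replicates 1, 2 and 3, or 18.1 ± 4.37 TPM (SD, n = 3). Oaz2, a second antizyme, had 5.19, 5.24 and 9.95 TPM, or 6.79 ± 2.73 TPM, and 10.4 ± 4.4 TPM in the kallisto tables (SD, n = 3 for each). All Oaz1 libraries lay above all Oaz2 libraries, with a ratio of 2.77 ± 0.529 (SD, n = 3) in TPM and 1.61 ± 0.484 (SD, n = 3) in the kallisto tables, where the ranges overlapped. The ratio was 4.47 ± 1.06 in CPM and 5.22 ± 1.23 in CPM per kb of merged exons (SD, n = 3 for each). Azin1, the antizyme inhibitor, a relative of ornithine decarboxylase that binds antizyme without decarboxylating ornithine, had 22.38, 22.67 and 24.47 TPM, or 23.2 ± 1.13 TPM (SD, n = 3). In TPM its libraries overlapped those of Oaz1 in range, although Azin1 was higher than Oaz1 within each library. The ratio of Azin1 to Oaz1 was 1.32 ± 0.260 in TPM, 5.97 ± 0.430 in the kallisto tables and 1.66 ± 0.186 in CPM. In CPM per kb of merged exons it was 0.678 ± 0.0761, with Oaz1 above Azin1 in every library (SD, n = 3 for each). Which of the 2 was higher thus depended on the measure.

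The level of Azin1 depended on the measure. Its mean was 91.6 ± 5.12 TPM (SD, n = 3) in the kallisto tables. The ratio of Odc1 to Azin1 was 7.07 ± 2.21 in TPM, 2.03 ± 0.536 in the kallisto tables and 2.00 ± 0.471 in CPM, which is not scaled for length (SD, n = 3 for each). Behind the TPM stands the mean length of the transcripts to which reads were assigned, 2224 to 2825 bases for Azin1 and 874.8 to 880.2 bases for Odc1. With counts divided by the merged length of all annotated exons instead, the ratio was 3.67 ± 0.865 (SD, n = 3). Odc1 lay above Azin1 in every library by all 4 measures. An antisense gene, Gm49077, overlaps Azin1 (chromosome 15, 38487427 to 38519266, minus strand) and had 11.9, 10.2 and 7.78 counts, against 1265, 1061 and 876 for Azin1. The strand setting was not given in the sources used here, so reads of these 2 genes cannot be told apart where they overlap.

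The breakdown branch held both the highest gene and one of middle rank. Smox, the oxidase that turns spermine back into spermidine and releases hydrogen peroxide, had 13.85, 10.88 and 18.97 TPM in replicates 1, 2 and 3, or 14.6 ± 4.09 TPM (SD, n = 3). Its libraries did not come near those of Sat1: the ratio of Sat1 to Smox was 44.0 ± 9.11 (SD, n = 3) in TPM and 13.5 ± 3.12 (SD, n = 3) in the kallisto tables. Smox lies on chromosome 2 (131491496 to 131525922, plus strand) and has 17 annotated transcripts, more than any of the other 8. Sat1 itself had 14302, 12040 and 10644 expected counts. Its deposited TPM lay above its own credibility interval in every library, for example 508 against 479.6 to 497.7 in replicate 1, and the posterior mean in the same tables was lower, at 586 ± 115 TPM (SD, n = 3).

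The protein-coding genes nearest to Sat1 in level were compared by the difference of mean TPM over the 3 libraries. Directly above were the cytokine-induced gene Tnfaip2 at 767 ± 231 TPM, the RNA-binding protein gene Hnrnpa2b1 at 707 ± 157 TPM and the lysosomal protein gene Psap at 673 ± 86.0 TPM (SD, n = 3 for each). Directly below were the proton pump subunit gene Tcirg1 at 623 ± 154 TPM, the scavenger receptor gene Stab1 at 612 ± 192 TPM and the splicing factor gene Rbm39 at 570 ± 103 TPM (SD, n = 3 for each). All 6 overlapped Sat1 in range, so ranks in this stretch are not separated. In the kallisto tables Sat1 ranked 21, at 625 ± 103 TPM (SD, n = 3), and these 6 genes had means between 519 and 1459 TPM.

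Differences between the libraries depended on the scaling. In TPM, replicate 3 was the highest library for 9 of the 9 genes, as it was for 86.9% of protein-coding genes. With TPM rescaled to the sum over protein-coding genes, replicates 1, 2 and 3 were the highest for 2, 4 and 3 of the 9. For protein-coding genes the shares were 21.1, 32.1 and 46.8%. On this scale Sat1 had rescaled levels of 3215, 3266 and 3155 TPM in replicates 1, 2 and 3, a coefficient of variation of 1.75%, against 22.2% in TPM. Amd1 had 23.5, 23.8 and 22.8, a coefficient of 2.19% against 21.6%. Odc1 still differed, at 643, 1077 and 802, with replicate 2 the highest. Oaz2, Smox and Srm kept coefficients of 16.8, 18.4 and 22.5%, against 40.2, 28.1 and 47.0% in TPM. Azin1 alone went the other way, at 141.6, 125.6 and 99.1, a coefficient of 17.6% against 4.89% in TPM.

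**Figure D2:**
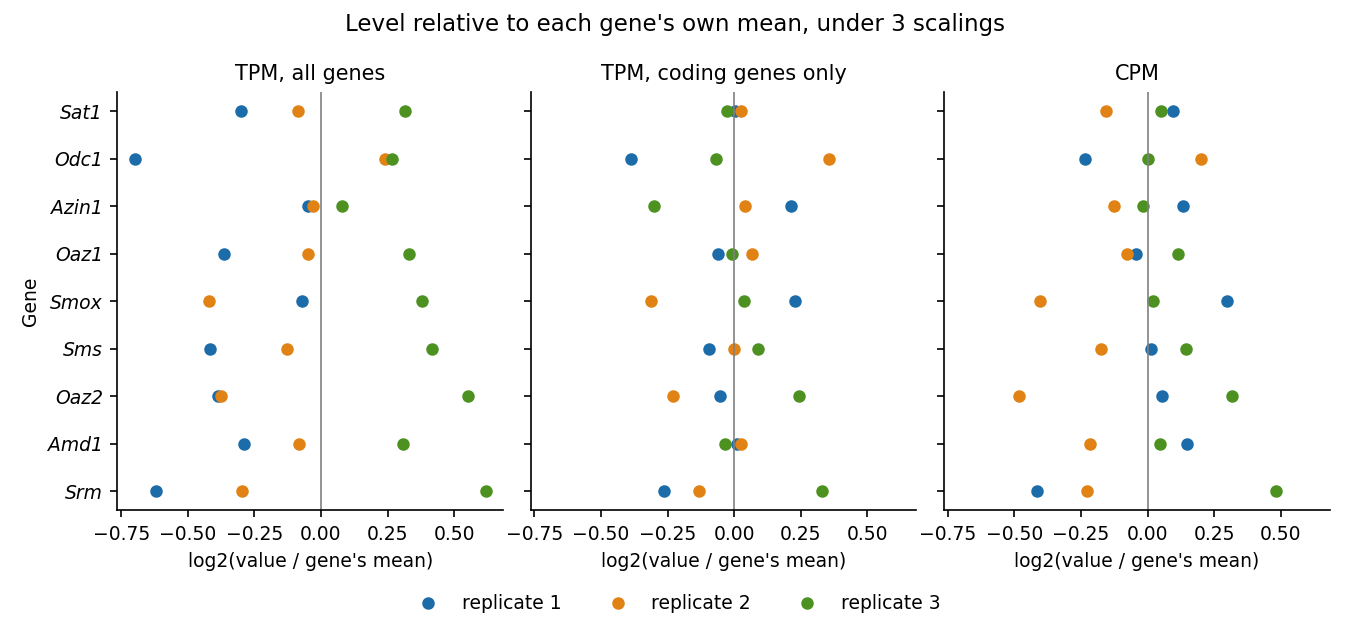
Level of each gene in each library as the log2 ratio to the gene's own mean, for TPM over all genes (left), TPM rescaled over protein-coding genes (middle) and CPM (right); points are libraries, coloured by replicate. Replicate 3 is highest for all 9 genes on the left, while in the middle the 3 libraries of Sat1 and of Amd1 nearly coincide and those of Odc1 stay apart. The libraries of Azin1 lie further apart in the middle than on the left.

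The labelled difference between the libraries, the amount of starting RNA, was tested with edgeR's quasi-likelihood test of a slope per doubling. There is 1 library per amount, so amount and library cannot be told apart. Of 13985 genes tested, 144 were higher with more RNA (1.03%) and 16 lower (0.114%) at an adjusted p below 0.05. None of the 8 polyamine genes tested passed, a count of 0. At an unadjusted p below 0.05 edgeR called 1 of the 8, against 6.97% of all genes. It also called 1 with upper quartile factors and with no filter on low counts, but 0 with DESeq2 size factors and in the kallisto tables. DESeq2 called 0 of the polyamine genes at either threshold, and 447 genes in all at the unadjusted one. The 1 gene was Odc1, whose edgeR slope was -0.34 (SE 0.165) on the log2 scale per doubling, with an adjusted p of 0.709. The slope of Sat1 was 0.01 (SE 0.217, edgeR adjusted p = 1), and the median slope over the 8 genes was 0.01, against 0.00 over all genes. Srm was left out of this fit by its low counts. The test gives no SE, so both SEs were derived as the absolute slope divided by the square root of its F statistic.

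With scaling by trimmed means (TMM), Odc1 had 118, 188 and 124 CPM and Sat1 872, 864 and 757 CPM in replicates 1, 2 and 3. The biological coefficient of variation, edgeR's estimate of scatter beyond counting error, was 22.0% for Odc1, higher than in 71.1% of genes tested. It was 18.6% for Sat1 (33.4% of genes lower) and 16.3% for Sms, the steadiest of the 8 (1.13% of genes lower). The other 5 genes lay between 17.35 and 19.02%.

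Most of the Sat1 signal was assigned to transcripts that do not encode the full enzyme. Transcripts annotated as retained intron held 76.5, 75.8 and 78.0% of Sat1 TPM in replicates 1, 2 and 3, or 76.75% ± 1.10 (SD, n = 3). The transcript annotated as a target of nonsense-mediated decay, the pathway that destroys mRNAs with an early stop codon, held 13.5% ± 1.48, and the 2 protein-coding transcripts held 9.79% ± 0.737 (SD, n = 3 for each). Over the 5985 protein-coding genes with a retained-intron transcript and at least 1 TPM in every library, the median retained-intron share was 45.4%, and 92.1% of these genes had a lower share than Sat1. Of 8928 such genes with a protein-coding transcript, 3.23% had a lower protein-coding share than Sat1, against a median of 54.2%. In the kallisto tables the 3 shares of Sat1 were 79.8% ± 0.813, 15.2% ± 0.591 and 5.0% ± 0.631 (SD, n = 3 for each). In expected counts the retained-intron share was 76.9% ± 1.24 and the protein-coding share 8.84% ± 1.06 (SD, n = 3 for each). The mean coding share of Sat1 thus lay between 5.0 and 9.79% over TPM and expected counts of the first set and TPM of the kallisto tables.

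Sat1-205, a retained-intron transcript that begins inside intron 3 and covers 770 of its 1466 bases, was the highest of the 7 Sat1 transcripts, with 226.3, 260.2 and 378.8 TPM in replicates 1, 2 and 3. Sat1-206, which reads from exon 3 through 481 bases of the intron up to the end of the extra exon, had 102.7, 123.6 and 163.7 TPM. Both exceeded the main coding transcript in every library. Sat1-207, the form with the extra exon, had 65.96, 89.11 and 95.67 TPM, and Sat1-201, identical to it but for that exon, had 49.02, 34.99 and 69.81 TPM. Sat1-207 was higher than Sat1-201 within each of the 3 libraries. Its share of the 2 was 57.4, 71.8 and 57.8%, or 62.3% ± 8.21 (SD, n = 3), and 80.8% ± 2.60 in the kallisto tables. Replicate 2 stood above the other 2 libraries in the first set, and all 3 libraries lay higher, between 77.8 and 82.8%, in the kallisto tables. The extra exon lies inside intron 3, so reads of unspliced RNA within it can be assigned to Sat1-207 but not to Sat1-201. The share is thus not a measured rate of splicing to the extra exon.

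Intron 3 was the part of Sat1 on which these shares turned. The 4 transcripts with any base of it (Sat1-203, Sat1-205, Sat1-206 and Sat1-207) held 86.3% ± 2.26 of Sat1 TPM (SD, n = 3). Sat1-206 and Sat1-207, the 2 with the bases of the extra exon, held 33.2, 36.1 and 33.3% in replicates 1, 2 and 3, or 34.2% ± 1.64, and 38.0% ± 0.840 in the kallisto tables (SD, n = 3 for each). The stop codon of Sat1-207 lies in the extra exon, and that of Sat1-206 in intron 3 before it. Sat1-203, which also keeps all 266 bases of intron 1, had 30.28, 40.21 and 47.62 TPM. Sat1-204, which keeps all 95 bases of intron 4, had 29.18, 22.89 and 17.34 TPM. In the kallisto tables Sat1-204 had 63.2 ± 10.1 TPM and Sat1-203 44.2 ± 5.21 TPM, the reverse order (SD, n = 3 for each). None of the 7 transcripts holds a base of intron 2 or 5, so reads there could not be assigned to Sat1. Sat1-202, a coding transcript with 21 more bases in one exon and shorter ends, had 4.56, 18.5 and 6.26 TPM, and 8.48 ± 1.08 TPM in the kallisto tables (SD, n = 3).

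**Figure D3:**
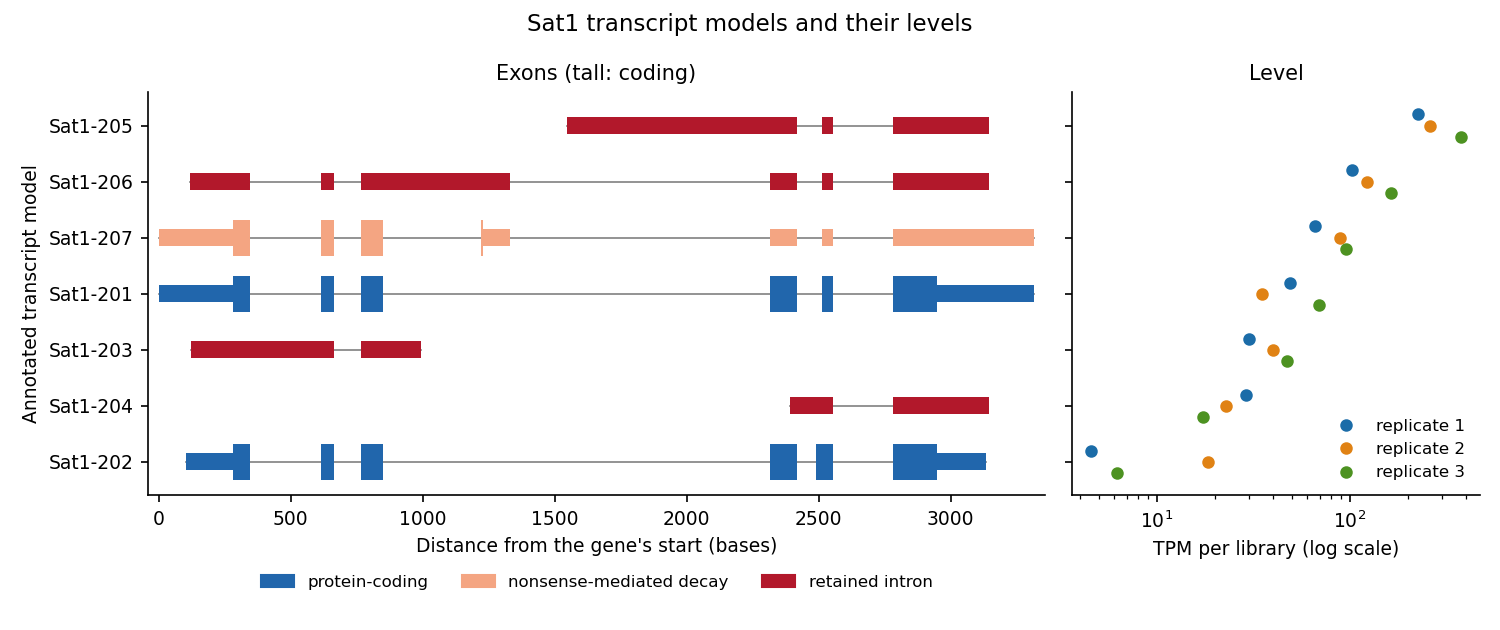
The 7 annotated Sat1 transcripts drawn by distance in bases from the gene's start (left; boxes are exons, tall boxes coding parts, lines introns, colours annotated types) and their TPM in each library on a log axis (right; points coloured by replicate). Sat1-205 and Sat1-206, which hold parts of the long intron 3, are highest, and Sat1-207 with the small extra exon lies above Sat1-201 in each library.

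Odc1 resembled Sat1 in TPM but not in counts. Its retained-intron share was 78.7% ± 0.846 of TPM and 75.0% ± 2.23 in the kallisto tables, but 39.4% ± 3.33 of expected counts (SD, n = 3 for each). These shares were higher than in 93.6, 90.3 and 62.3% of the genes compared, in that order. Its retained-intron transcripts are 472 to 764 bases long and its coding transcript, Odc1-201, is 2208 bases long, and TPM divides counts by length. Odc1-201 had 10.2, 22.02 and 15.13 TPM, or 9.67% ± 1.87 of Odc1 TPM and 29.4% ± 5.70 of its counts (SD, n = 3 for each). Odc1-205, annotated as a target of nonsense-mediated decay, held 27.0% ± 7.74 of counts (SD, n = 3). So the coding transcript of Odc1 held a minority of the signal in either unit, but how small a minority depended on the unit.

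Oaz1 went the other way. Its retained-intron share was 71.4% ± 3.42 of TPM and 91.6% ± 0.974 of counts, higher than in 87.5 and 98.1% of the genes compared (SD, n = 3 for each). All of it came from Oaz1-206, 2526 bases long in 2 exons, with 9.53, 12.46 and 16.99 TPM. The gene runs from 80826656 to 80829290, so Oaz1-206 covers most of it and can receive reads of unspliced RNA. Their part in its share was not tested. Of the coding transcripts of Oaz1, the short Oaz1-205 (538 bases) had 3.24, 2.03 and 2.97 TPM and Oaz1-207 had 0.95, 2.69 and 2.75 TPM. Oaz1-201, Oaz1-202 and Oaz1-204 were listed at 0. For Oaz2, the retained-intron transcript Oaz2-205 had 2.16, 2.00 and 4.54 TPM, a share of 41.8% ± 3.73, and Oaz2-201 had 2.14, 1.86 and 4.14 TPM, a share of 39.5% ± 3.43 (SD, n = 3 for each). The ranges of these 2 transcripts overlapped. The bases left out at the frameshift site separate Oaz1-207 and Oaz2-201 from Oaz1-206 and Oaz2-205, and their part in how reads were assigned was not tested.

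For Azin1 and Smox, transcript values differed between the 2 sets of tables. The retained-intron share of Azin1 was 41.2% ± 8.43 of TPM and 18.3% ± 4.11 of counts (SD, n = 3 for each). Its long coding transcript Azin1-201 (4871 bases) held 25.2% ± 6.41 of TPM and 51.1% ± 6.82 of counts, but 3.90% ± 0.617 of TPM in the kallisto tables (SD, n = 3 for each). There, Azin1-204, Azin1-208 and Azin1-209, of 591 to 655 bases, had means of 19.5, 17.2 and 18.0 TPM, against 0.42, 1.49 and 0 TPM in the other tables. For Smox the retained-intron share was 48.1% ± 4.75, against 19.8% ± 6.71 in the kallisto tables, and the share annotated for nonsense-mediated decay was 0.527% ± 0.913, against 24.6% ± 6.56 (SD, n = 3 for each). Smox-211, a coding fragment of 414 bases, had a mean of 2.2 TPM in one set and 13.4 TPM in the other. The sets also differed in the counts they gave these genes, 1265, 1061 and 876 against 2384, 2256 and 1688 for Azin1 and 551, 340 and 349 against 828, 676 and 743 for Smox in replicates 1, 2 and 3.

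In the synthases and Amd1 the picture was mixed. Sms had a retained-intron share of 73.05% ± 4.33 of TPM, 53.3% ± 4.38 of counts and 65.4% ± 5.11 in the kallisto tables (SD, n = 3 for each), above the genes' medians of 45.4, 28.05 and 44.05%. For Amd1 the coding transcript Amd1-201 had 2.62, 2.66 and 3.81 TPM and held 66.7% ± 4.38 of TPM and 89.6% ± 1.12 of counts, but 41.2% ± 5.47 of kallisto TPM (SD, n = 3 for each). There the retained-intron share of Amd1 was 46.7% ± 3.17 (SD, n = 3), against 33.4% ± 4.38 in the first set. Srm had too few counts for a share to be read.

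**Figure D4:**
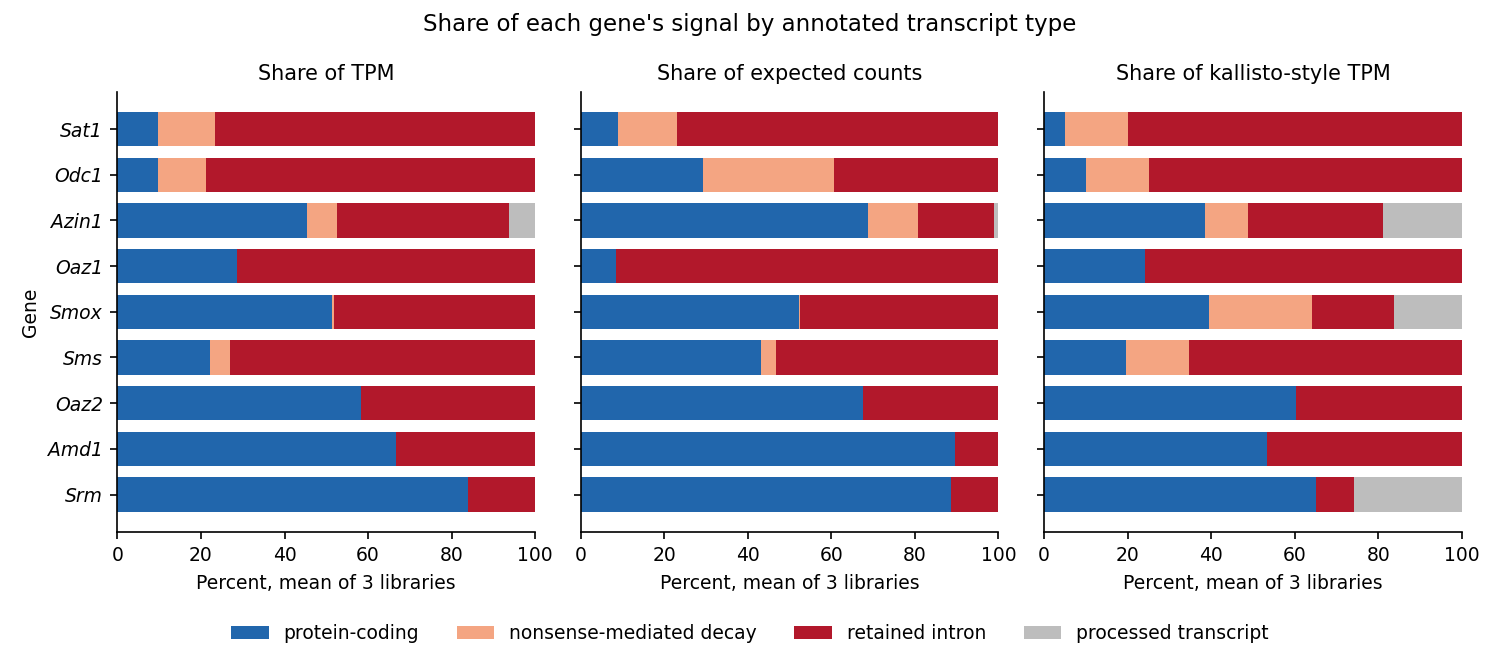
Share of each gene's signal held by protein-coding, nonsense-mediated decay, retained-intron and processed transcripts, as stacked bars of the mean percent over 3 libraries, in TPM (left), expected counts (middle) and kallisto TPM (right). Sat1 keeps a mean coding share of at most 9.79% in all 3 panels, Odc1 moves from 9.67% in TPM to 29.4% in counts, and Amd1 has a mean coding share of 53.3 to 89.6% over the 3 panels.

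The rest of the pathway had a lower median, 1.19 TPM over 37 other genes in 6 lists, against 14.6 TPM over the 9 genes. Of the 37, 18 reached 1 TPM in every library (24 in the kallisto tables). Of all 22028 protein-coding genes, 8942 did (11358 in the kallisto tables), and their median was 0.427 TPM. In the first set of tables, Atp13a2 and Slc3a2 alone had a mean of 50 TPM or more. Atp13a2, which exports polyamines from lysosomes, had 98.67, 171.1 and 167.6 TPM in replicates 1, 2 and 3, in the range of Odc1. Slc3a2, a transporter subunit that has been linked to polyamine exchange, had 47.41, 99.49 and 81.52 TPM, and 221.4, 289.3 and 300.8 TPM in the kallisto tables. Of the 8 transport genes, 3 reached 1 TPM in every library, and Slc12a8 was listed at 0 counts, although it had 3.28 to 6.85 TPM in the kallisto tables.

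Among 8 paralogues and other enzymes, 2 reached 1 TPM in every library. They were Paox, the oxidase that acts on acetylated polyamines made by the Sat1 enzyme, at 4.99, 3.90 and 6.16 TPM, and Azin2, a second antizyme inhibitor, at 1.5, 1.3 and 2.24 TPM. Oaz3, an antizyme known from the testis, had 9, 6 and 18.6 counts, and Aoc1, the diamine oxidase, was listed at 0. Of 8 genes of arginine and ornithine supply, 3 reached 1 TPM, from Asl, argininosuccinate lyase, at 11.8 ± 3.26 TPM down to the arginine transporter Slc7a2 at 0.193 ± 0.137 TPM (SD, n = 3 for each). In S-adenosylmethionine supply 2 of 4 did, led by the synthetase Mat2a at 32.1 ± 5.74 TPM, and 62.1 ± 6.28 TPM in the kallisto tables (SD, n = 3 for each), with Mat1a listed at 0.

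Genes that recycle the by-product of the aminopropyl transfers, methylthioadenosine, all reached the limit, 5 of 5, from Adi1 at 4.16 ± 1.66 TPM to Mtap at 1.30 ± 0.477 TPM (SD, n = 3 for each). Hypusination, the use of spermidine to modify the translation factor eIF5A, had 3 of 4 genes at 1 TPM or more, from Dhps, deoxyhypusine synthase, at 16.5 ± 8.20 TPM to Eif5a2 at 0.61 ± 0.304 TPM (SD, n = 3 for each). Sat1 exceeded each of these 37 genes in every library.

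**Figure D5:**
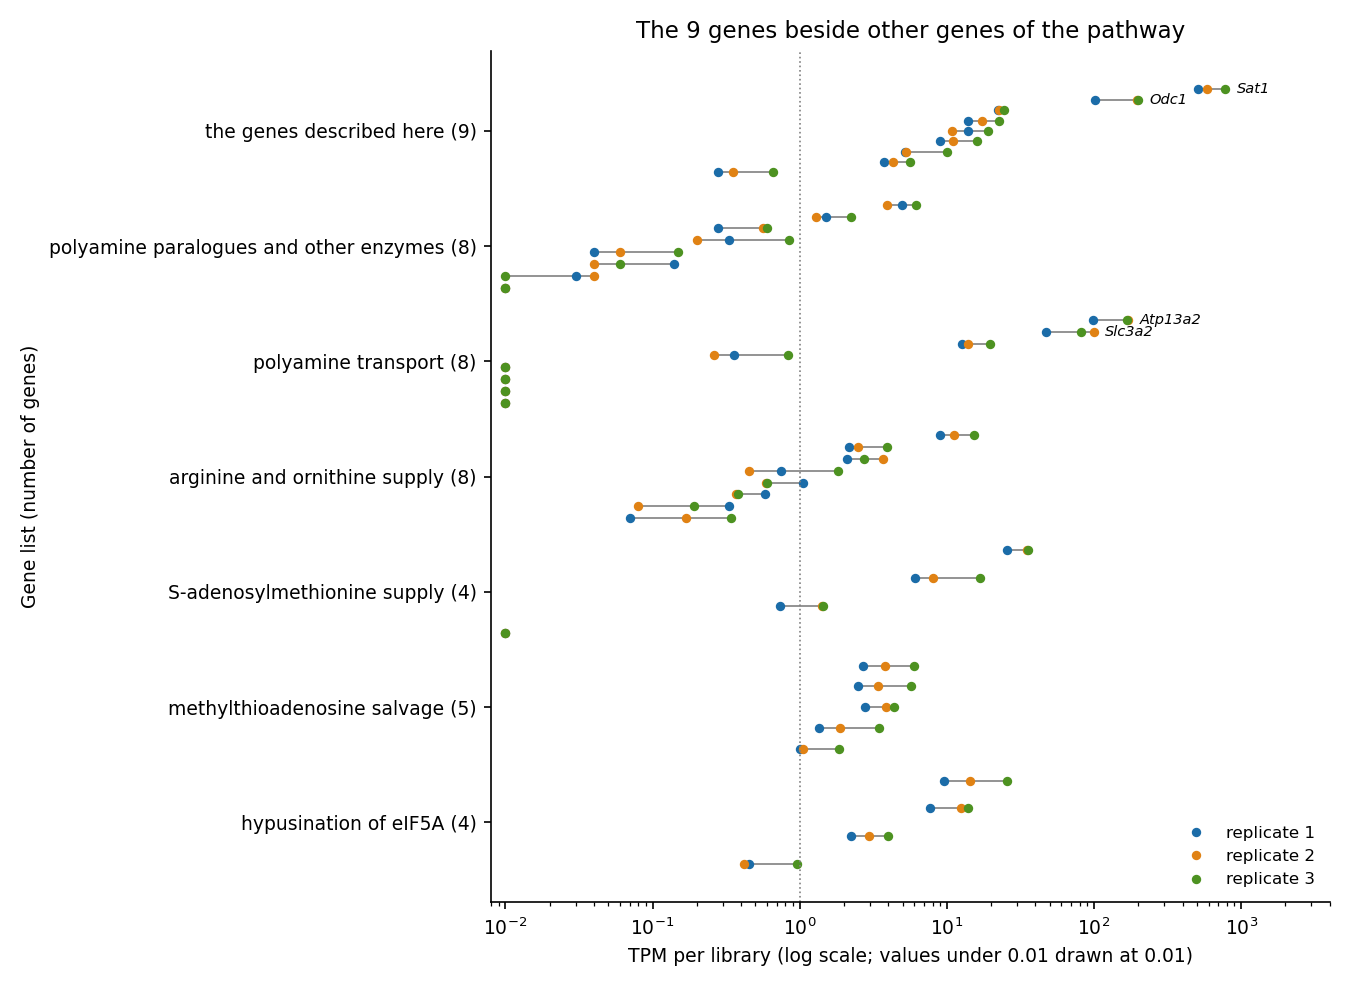
TPM in each library on a log axis for the 9 genes and 37 other genes of the pathway, grouped by list; points are libraries joined by a line per gene, the dotted line is 1 TPM, and genes with a mean of 50 TPM or more are named. Sat1 lies to the right of every other gene, and Atp13a2 lies in the range of Odc1.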

How the data were processed

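Chromatin-fraction RNA of 3 libraries of 1 group was analysed from the tables that the authors deposited for each library. Per the file headers, gene and transcript tables hold expected counts and TPM that the authors computed from transcriptome alignments, with a posterior mean TPM. The bounds of a credibility interval of TPM, deposited by the authors and treated here as a signal, have no stated level. Another set of deposited transcript tables has columns like those of kallisto, with estimated counts and TPM that the authors made from reads with no alignment file among the inputs, per the deposited listing of files. That listing gives assembly mm10 and annotation M21. Tool names, the aligner and the strand setting were not given in the sources used here. Because TPM is scaled over all entries, small RNAs lower the TPM of every other gene. Intron reads of unspliced RNA are counted only through annotated transcripts that hold those intron bases. Its exon reads can also be assigned to protein-coding transcripts.

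Gene symbols, transcript types and 1-based coordinates came from GENCODE M21 (GRCm38), and printed sequences from its transcripts. Of the entries, 26345 that were not Ensembl genes (1.08, 0.299 and 0.332% of counts) were left out. Library totals were 25111219, 27695628 and 21058255 estimated counts in the kallisto tables, and those of the gene tables are in the report. Libraries had equal rounded counts in 1.38 to 1.65% of genes, so none was a copy of another. No whole library was left out.

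Members and lists were chosen with earlier results of these data known. The text names the 9 genes, the highest and lowest member of each other pathway list and any with a mean of 50 TPM or more, the 3 coding genes above and 3 below Sat1, and paralogues, pseudogenes and overlapping genes with reads; Slc12a8 and Kdr, and single transcripts, were named after their values were seen. Shares are transcript TPM or counts divided by the gene's sum. The trend used rounded expected counts, edgeR 4.0.16 (R 4.3.3) with TMM and filterByExpr, and Benjamini-Hochberg adjustment, with 1 residual degree of freedom per gene, and was tested on simulated data. Alternatives were the kallisto tables, posterior mean TPM, TPM over coding genes, CPM, other limits and factors, no filter, DESeq2 1.42.0, shares of counts, and each library left out. CPM per kb of merged exons was added after the data were seen. Python 3.11.15, numpy 2.4.6, pandas 2.3.3 and matplotlib 3.10.9 were used.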

Additional observations from a re-analysis of the deposited data

How the results depend on the processing

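Leaving out any 1 library kept the order of the 9 genes. Each of the 9 gene levels moved by less than 1 SD. A larger move was not possible with 3 libraries, so this is no check of the levels. The median of their mean TPM, 14.6, lay between 12.4 and 16.4 without 1 library, and became 74.9 with TPM rescaled over protein-coding genes. Of the 9 positions in the reported order, 7 were kept in kallisto TPM, where Smox (mean 48.65 TPM) lay above Oaz1 (mean 15.41 TPM). All 9 were kept with posterior mean TPM and with TPM rescaled over protein-coding genes. In CPM 5 were kept, and 5 in CPM per kb of merged exons, a measure chosen after seeing the data. At a limit of 10 TPM, 5 of the 9 genes passed in every library, against 8 at 1 TPM. The median share of transcripts other than protein-coding over the 9 genes was 54.5% of TPM, 61.5% of kallisto TPM and 47.8% of counts, and lay between 51.7 and 58.6% without 1 library. It was 58.6% without replicate 1. Genes higher with more starting RNA numbered 144 of 13985 tested in edgeR with TMM and 63 of 13985 with DESeq2 size factors. They numbered 226 of 24261 with no filter on low counts, 87 of 11544 in DESeq2 and 231 of 22432 in the kallisto tables. Genes lower with more RNA numbered 16, then 3, 58, 1 and 36 under these settings in turn, and 10 with upper quartile factors. None of the polyamine genes was called under any of these settings. With 1.03% of all genes called higher and 0.114% lower in edgeR with TMM, this says little about so few genes. The slope of Odc1 was -0.60 without replicate 1 and -0.07 without replicate 2, values with no test because 2 libraries leave no residual degree of freedom. The causes of these changes were not tested. No paired analysis was possible because there is 1 group. Low counts limit Srm, at 7 to 10 counts a library.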
